A study of Homo sapiens with 20 samples.

Results

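The genes described here are antisense long non-coding RNA (lncRNA) genes, each set beside the protein-coding gene on which it is named, called the host gene. GENCODE release 44 holds 1816 lncRNA genes whose name ends in -AS and a number. After leaving out 3 of them, 1778 had a protein-coding host of the name before -AS, both genes of 1762 pairs had a transcript in the files, and both genes of 1391 pairs were tested. A pair was kept when both genes had a mean of 1 CPM, the count scaled to a common library size, or more over the 20 samples, which left 437 pairs with 437 antisense genes and 431 hosts, out of 27697 mRNA and lncRNA genes tested in all. The members nearest to the minimum were TMC3-AS1 at 1.0 CPM and CAPN1-AS1 at 1.01 CPM on the inside, and FXYD6-AS1 at 0.998 CPM and PRDM4-AS1 at 0.986 CPM on the outside. The mean of an antisense gene reached the minimum only through the nutlin samples in 58 pairs and only through the vehicle samples in 4 pairs, and that of a host through 1 condition in 6 pairs.

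The samples were cultures of NGP, an established human neuroblastoma cell line with amplified MYCN. The 10 nutlin samples had received nutlin-3 at 8 µM as a racemic mixture, and the 10 vehicle samples had received ethanol, with no genetic change in either group. Nutlin-3 blocks the binding of MDM2 to p53, and the comparison asks which genes respond. The duration of treatment is not given in the sources used here, and a single cell line stands behind every value. The study's methods describe the 10 samples of each condition as biological replicates.

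Antisense lncRNAs are transcribed from the strand opposite to a protein-coding gene, often from a start near the host's own promoter or from within its body. Some act on the host in cis, through its chromatin, its promoter or its transcript, and others share no more than a location and a name with it. p53 induces genes such as CDKN1A and XPC by binding near them, and lowers many cell cycle genes indirectly through the DREAM complex, which acts at CHR elements and neighbouring CCAAT boxes of their promoters.

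Library depth, as summed estimated counts, ranged from 14455480 to 19532970 in the vehicle samples and from 15078050 to 17442900 in the nutlin samples. The 8 adrenergic neuroblastoma markers examined were all expressed, with the lowest median in either condition at 56.5 TPM, the count scaled by transcript length and library size, for DBH after nutlin. The fibroblast, leukocyte and epithelial markers had medians of at most 8.13 TPM, the level of COL1A1 after nutlin. COL1A2, PTPRC and KRT18 had medians under 0.15 TPM in both conditions. After nutlin COL1A1 (LFC 1.98), CD68 (2.29) and EPCAM (1.70) of the 7 such markers were called higher and none lower, and their part in the results was not tested. MDM2 rose by a log2 fold change (LFC) of 4.51 ± 0.07 (SE) and CDKN1A by 5.68 ± 0.14. The cell number per sample was not measured, so that fewer cells and less RNA per cell cannot be told apart.

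RefSeq promoter windows of GRCh38.p14, from 250 bases before to 50 bases after a start, were available for 320 of the antisense genes and 354 of the hosts. Those below are shown because 2 antisense genes were nearly silent in vehicle and rose after nutlin (NCKAP5-AS1 and MED4-AS1), because PRC1 had the largest change among hosts whose antisense gene was not called, and because TIAM1-AS1 lies beside its host's start and fell with it. Capitals mark a p53 recognition decamer with a CATG core in NCKAP5-AS1, a CCAAT box and a CHR in PRC1, and the 145 bases between the starts of TIAM1-AS1 and TIAM1.
NCKAP5-AS1 (chr2:132915307-132915606, plus strand): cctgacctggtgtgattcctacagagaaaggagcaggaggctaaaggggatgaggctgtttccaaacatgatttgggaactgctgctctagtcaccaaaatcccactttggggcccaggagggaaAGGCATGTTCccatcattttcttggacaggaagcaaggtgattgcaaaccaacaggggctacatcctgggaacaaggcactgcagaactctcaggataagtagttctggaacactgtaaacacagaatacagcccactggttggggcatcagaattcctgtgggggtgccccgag
MED4-AS1 (chr13:48076887-48077186, plus strand): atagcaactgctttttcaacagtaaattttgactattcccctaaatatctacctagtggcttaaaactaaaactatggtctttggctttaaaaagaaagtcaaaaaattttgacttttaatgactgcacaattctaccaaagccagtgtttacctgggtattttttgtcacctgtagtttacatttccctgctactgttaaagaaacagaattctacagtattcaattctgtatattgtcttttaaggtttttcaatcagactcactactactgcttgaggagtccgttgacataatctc
PRC1 (chr15:90994486-90994785, minus strand): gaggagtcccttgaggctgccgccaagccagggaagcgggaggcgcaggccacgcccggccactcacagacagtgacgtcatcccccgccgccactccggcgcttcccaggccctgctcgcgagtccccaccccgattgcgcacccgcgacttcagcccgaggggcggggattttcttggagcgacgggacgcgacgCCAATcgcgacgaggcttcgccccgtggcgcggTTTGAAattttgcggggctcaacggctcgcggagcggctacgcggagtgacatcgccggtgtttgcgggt
TIAM1-AS1 (chr21:31558983-31559282, plus strand): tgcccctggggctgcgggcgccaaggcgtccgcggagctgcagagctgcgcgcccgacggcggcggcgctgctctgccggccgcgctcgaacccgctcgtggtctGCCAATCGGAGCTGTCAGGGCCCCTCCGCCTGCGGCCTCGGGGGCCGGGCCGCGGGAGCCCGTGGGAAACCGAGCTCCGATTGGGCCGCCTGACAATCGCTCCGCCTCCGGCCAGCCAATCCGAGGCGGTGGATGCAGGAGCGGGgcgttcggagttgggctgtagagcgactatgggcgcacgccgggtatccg
The starts in RefSeq and GENCODE coincided for NCKAP5-AS1 and MED4-AS1, and were 12 bases apart for TIAM1-AS1 and 1094 bases apart for PRC1. Both strands were searched for a CHR, as the letters TTTGAA. Its variant form, with the letters TTCGAA, was counted as well. The other motifs searched were the CCAAT box and the p53 decamer, which is a half-site with a CATG core. A full p53 response element, of 2 half-sites 0 to 13 bases apart, was searched as well. No marked motifs shared bases in these windows. The 145 bases between TIAM1-AS1 and TIAM1 held 3 CCAAT boxes, whereas the MED4-AS1 window held none of the motifs. Of all 35116 windows in the table, 16.4% held a CHR, 34.6% a CCAAT box and 1.57% the p53 decamer. The corresponding shares were 11.5%, 30.4% and 1.87% of 375 antisense windows, and 12.3%, 34.4% and 1.64% of 608 host windows. The full p53 response element was in 0.0285% of all windows and in no antisense or host window. A match is a description of the letters and not of binding.

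Genes called at 5% FDR by edgeR's quasi-likelihood test are termed significantly differentially expressed (SDE), with adjustment over all 27697 genes. After nutlin 222 antisense genes were higher (50.8%), 89 were lower (20.4%) and 126 were not called. The background is close to this, since 54.2% of the 2400 lncRNAs with a mean of 1 CPM or more were higher and 16.7% were lower. Among the hosts the balance ran the other way, with 145 pairs having a higher host (33.2%), 212 a lower host (48.5%) and 80 an uncalled host. The mRNAs of 1 CPM or more again gave similar shares, 31.5% higher and 50.4% lower of 12824. The median LFC was 0.32 over the antisense members and -0.14 over the hosts, against 0.35 for lncRNAs and -0.15 for mRNAs of that abundance. Every nutlin sample lay above or below every vehicle sample for 143 antisense genes, and for the host in 242 pairs, where 31.8% of those lncRNAs and 52.3% of those mRNAs did so. In the 371 pairs whose 2 means were each at the minimum in both conditions, 171 antisense genes were higher and 83 lower.

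The ratio of antisense to host within each sample was then tested directly with limma, on log2(CPM + 0.5) of the antisense gene minus that of its host. It rose in 234 pairs (53.5%) and fell in 89 (20.4%), and 114 pairs were not called. Over all 2006 host-named pairs tested, including divergent and intronic transcripts, 47.6% rose and 19.6% fell, and among the 222 abundant pairs that are not members the shares were 57.2% and 14.4%. The pseudocount shrinks the change of rare genes, and in 2 called pairs, LIF-AS2 and SLC7A11-AS1, the ratio and the difference of the 2 LFCs had different signs. The median change of the ratio was 0.33.

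Both members were SDE in 255 pairs, of which 151 moved in the same direction and 104 in opposite directions. Both rose in 100 pairs and both fell in 51. The antisense gene rose as the host fell in 86, and the reverse held in 18. Of all genes of 1 CPM or more, 54.2% of lncRNAs were higher and 50.4% of mRNAs were lower. Unrelated genes were not paired as a background, so these counts do not set antisense pairs apart. The host alone was called in 102 pairs, lower in 75 and higher in 27. The antisense gene alone was called in 56, higher in 36 and lower in 20, and neither was called in 24. Across the 437 pairs the 2 LFCs had a Pearson correlation of 0.49 and a Spearman correlation of 0.37, as a description of points that share libraries and, in part, exonic sequence. Of the 151 pairs that moved in the same direction, 92 still had a called change of the ratio.

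**Figure D1:**
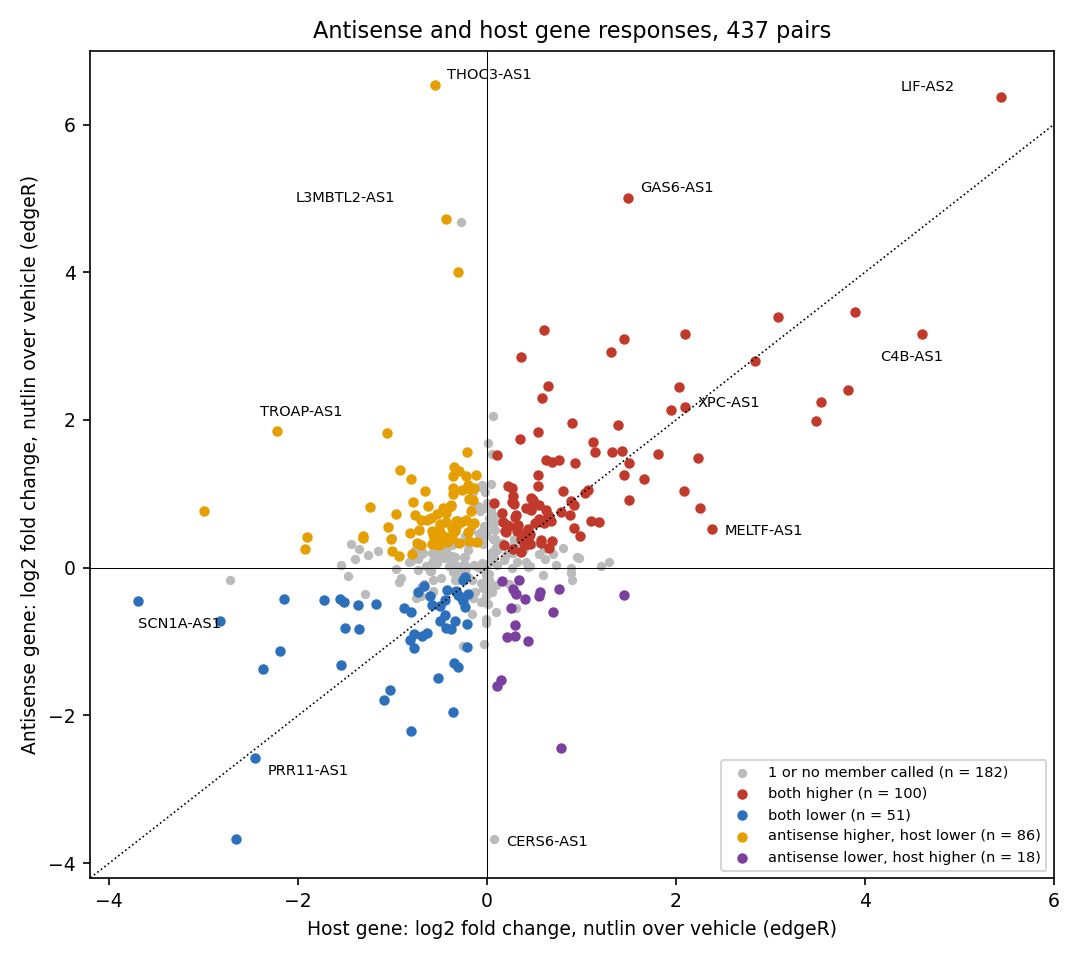
Log2 fold change of the host gene (x axis) against that of its antisense gene (y axis) after nutlin, 1 point for each of 437 pairs, coloured by the edgeR calls of both members; the dotted line marks equal change. Both called classes of equal direction (100 and 51 pairs) fill the upper right and lower left, and 86 pairs sit at the upper left, where the antisense gene rose and the host fell.

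The 2 members whose hosts are on a fixed list of p53 targets, POLH and XPC, rose with their hosts. At 1 CPM or more, 54.2% of lncRNAs and 31.5% of mRNAs were higher. The p53 target list is not complete, as LIF, described below, is not on it. XPC recognises DNA lesions in nucleotide excision repair, and POLH is the translesion polymerase eta. XPC-AS1 (ENSG00000228242, chr3:14144637-14165978, GRCh38, plus strand) meets XPC tail to tail and had 1.79, 2.84 and 3.79 CPM as the lowest, median and highest vehicle value and 10.4, 12.8 and 14.9 CPM after nutlin. XPC itself went from 31.0, 33.6 and 40.6 CPM to 128, 150 and 159 CPM. No nutlin sample of either gene reached down to a vehicle sample. The LFCs were 2.18 ± 0.09 (SE, n = 10 against 10) for XPC-AS1 and 2.10 ± 0.05 for XPC, and the ratio changed by -0.07 ± 0.09 (limma, adjusted p = 0.514). In the annotation 28.4% of the exonic bases of XPC-AS1 lie in XPC exons.

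POLH-AS1 lies inside POLH on the other strand and shares no exonic base with it. It had 0.619, 1.38 and 2.06 CPM in vehicle and 2.31, 2.62 and 3.36 CPM after nutlin, an LFC of 1.04 ± 0.16. POLH rose more, by 2.09 ± 0.04, from a median of 24.5 to 103 CPM, with no overlap of the conditions for either gene. The ratio fell by 1.20 ± 0.14 (limma, adjusted p = 2.1e-08).

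Of the 5 pairs whose hosts are on a fixed cell cycle list, 4 had hosts that fell and a ratio that rose. Of all mRNAs of 1 CPM or more, 50.4% were lower. The ratio rose in 47.6% of all host-named pairs and in 57.2% of the abundant pairs that are not members. TROAP and PRR11, described below, are not on the cell cycle list, and their ratios changed by 3.92 and 0.05. PRC1, a microtubule bundler of the central spindle whose promoter is printed above, fell by 2.72 ± 0.05 on the log2 scale, from 545 to 667 CPM down to 71.6 to 104 CPM. PRC1-AS1 stayed within 1.04 to 2.70 CPM in vehicle and 0.854 to 2.26 CPM after nutlin, and its LFC of -0.17 ± 0.18 was not called (adjusted p = 0.436). With an offset for effective length that LFC was -0.81 and passed the test. The exons of PRC1-AS1 overlap those of PRC1 over 22.8% of their bases.

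TMPO-AS1 and OIP5-AS1 fell, each by less than its host. TMPO encodes lamina-associated polypeptide 2, and OIP5 is a centromere factor that helps load CENP-A. TMPO-AS1 had an LFC of -1.13 ± 0.11 against -2.19 ± 0.05 for TMPO. OIP5-AS1, an abundant lncRNA with a median of 149 CPM in vehicle and 112 CPM after nutlin, fell by 0.42 ± 0.05 against 2.15 ± 0.07 for OIP5. The change of the ratio was 1.19 ± 0.11 for TMPO-AS1 and 1.62 ± 0.08 for OIP5-AS1. Unlike OIP5-AS1, TMPO-AS1 could not be tested on transcripts free of host exons. The part of TMPO reads in its count was not tested. CDK6, a G1 kinase, and CDK6-AS1 were both not called, with LFCs of 0.02 ± 0.06 and -0.09 ± 0.16. With an offset for effective length the LFC of CDK6 was 0.34 and called, and the change of the ratio from TPM was -0.45 and called.

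**Figure D2:**
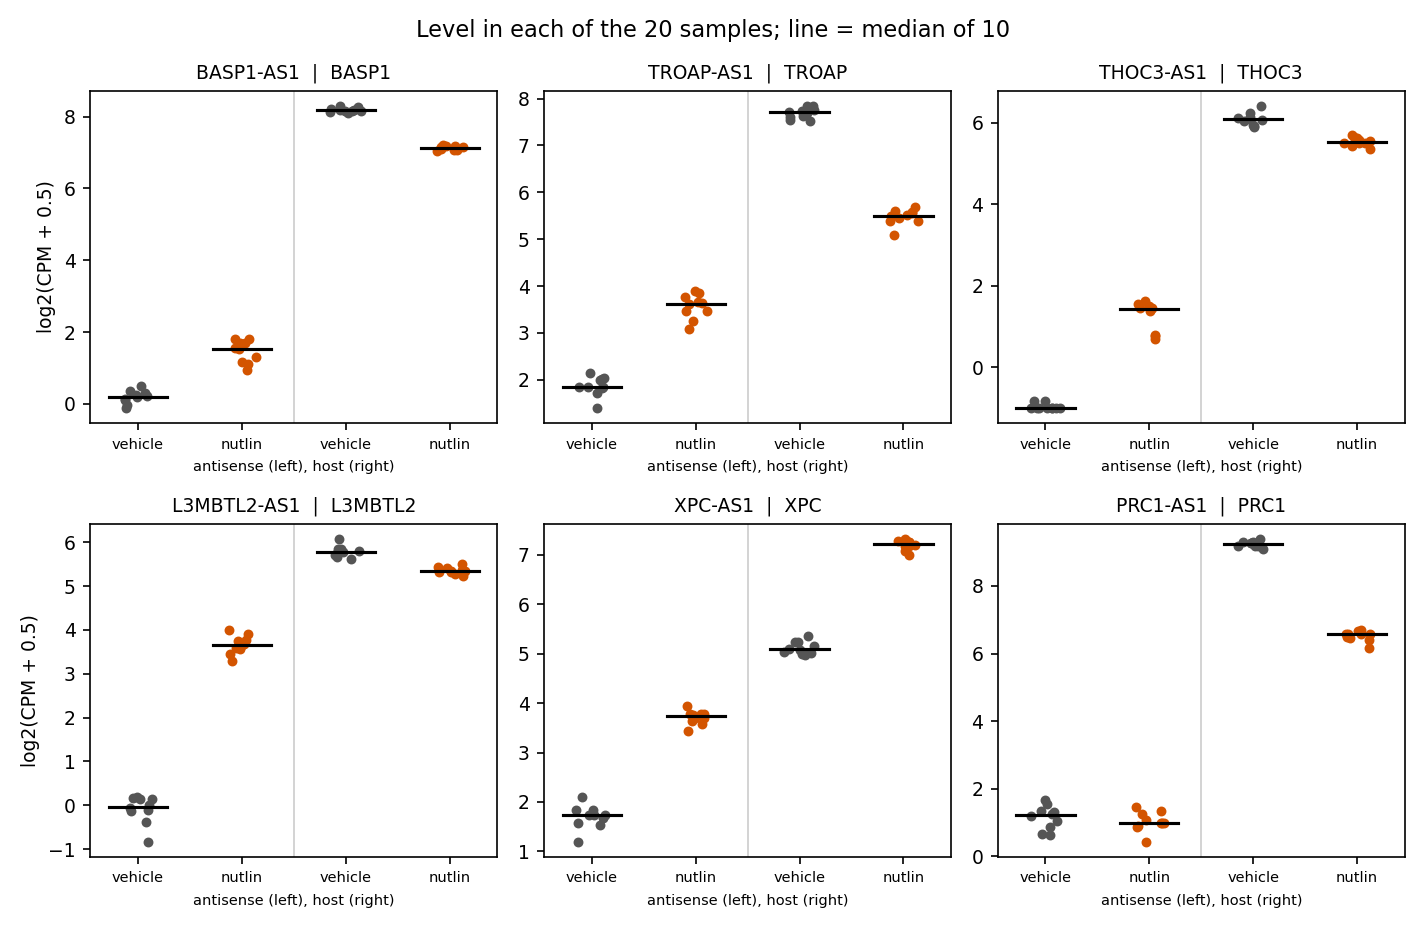
Level of the antisense gene (left of each panel) and of its host (right) as log2(CPM + 0.5), each point 1 of 10 vehicle (grey) or 10 nutlin (orange) samples and each line a median. BASP1-AS1, TROAP-AS1, THOC3-AS1 and L3MBTL2-AS1 rise as their hosts fall, XPC-AS1 and XPC rise together, and PRC1-AS1 overlaps between the conditions (0.854 to 2.70 CPM).

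Among the 104 pairs that moved apart, the largest change of the ratio with 0.5 CPM added belonged to L3MBTL2-AS1. From TPM the change was 4.92 for this pair and 6.71 for THOC3-AS1. L3MBTL2 is a methyl-lysine reader of a variant Polycomb complex. L3MBTL2-AS1 (chr22:41207592-41228500, minus strand), inside its host, went from 0.0612, 0.479 and 0.642 CPM in vehicle to 9.32, 12.2 and 15.5 CPM. L3MBTL2 went from 48.3, 54.7 and 66.8 CPM to 37.3, 40.3 and 45 CPM. Neither gene overlapped between conditions, and the LFCs were 4.72 ± 0.15 and -0.43 ± 0.05, with a ratio change of 4.18 ± 0.12. Host exons cover 30.8% of the exonic bases of L3MBTL2-AS1, and no transcript of it in the files was free of them.

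TROAP, a spindle protein of dividing cells, fell by 2.22 ± 0.06, from 182 to 230 CPM in vehicle to 33.5 to 51.0 CPM. TROAP-AS1 went from 2.13, 3.09 and 3.91 CPM to 7.94, 11.8 and 14.4 CPM, an LFC of 1.86 ± 0.11. The conditions did not overlap for either gene. Another gene lies in the same stretch, as 44.9% of the exonic bases of TROAP-AS1 fall in exons of PRPH, which encodes the neuronal filament protein peripherin and rose by 1.69 on the log2 scale. The part of PRPH reads in the count of TROAP-AS1 was not tested.

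THOC3-AS1 (chr5:175972606-175987666, plus strand) lies in an intron of THOC3, a subunit of the THO mRNA export complex, and shares no exonic base with any protein-coding gene. It was at 0 in 8 of 10 vehicle samples, with 2 counts in all, and at 1.11, 2.20 and 2.57 CPM after nutlin, with 307 counts. The ratio of nutlin to vehicle was 171, with an exact 95% interval of 46.9 to 1420 that covers counting error only. THOC3 itself went from 58.6, 67.4 and 84.98 CPM to 40.6, 45.8 and 51.4 CPM, an LFC of -0.56 ± 0.06. The ratio within samples rose by 2.77 ± 0.13, and by 4.72 with 0.1 CPM added. Like BASP1-AS1, C4B-AS1, GPC1-AS1, L3MBTL2-AS1, LIF-AS2, MED4-AS1 and NCKAP5-AS1, it met the CPM minimum only through the nutlin samples, so that a difference was part of its selection.

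MED4-AS1, within the Mediator gene MED4, had 17 counts over the vehicle samples and 300 over the nutlin samples, an LFC of 4.01 ± 0.33. MED4 fell by 0.30 ± 0.04. Of the exonic bases of MED4-AS1, 56.6% are shared with MED4 exons. BASP1-AS1 rose by 1.82 ± 0.17, from a median of 0.653 to 2.41 CPM, while BASP1, a growth cone protein, fell by 1.06 ± 0.03, from 288 to 139 CPM. BASP1-AS1 shares 2.55% of its exonic bases with its host.

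**Figure D3:**
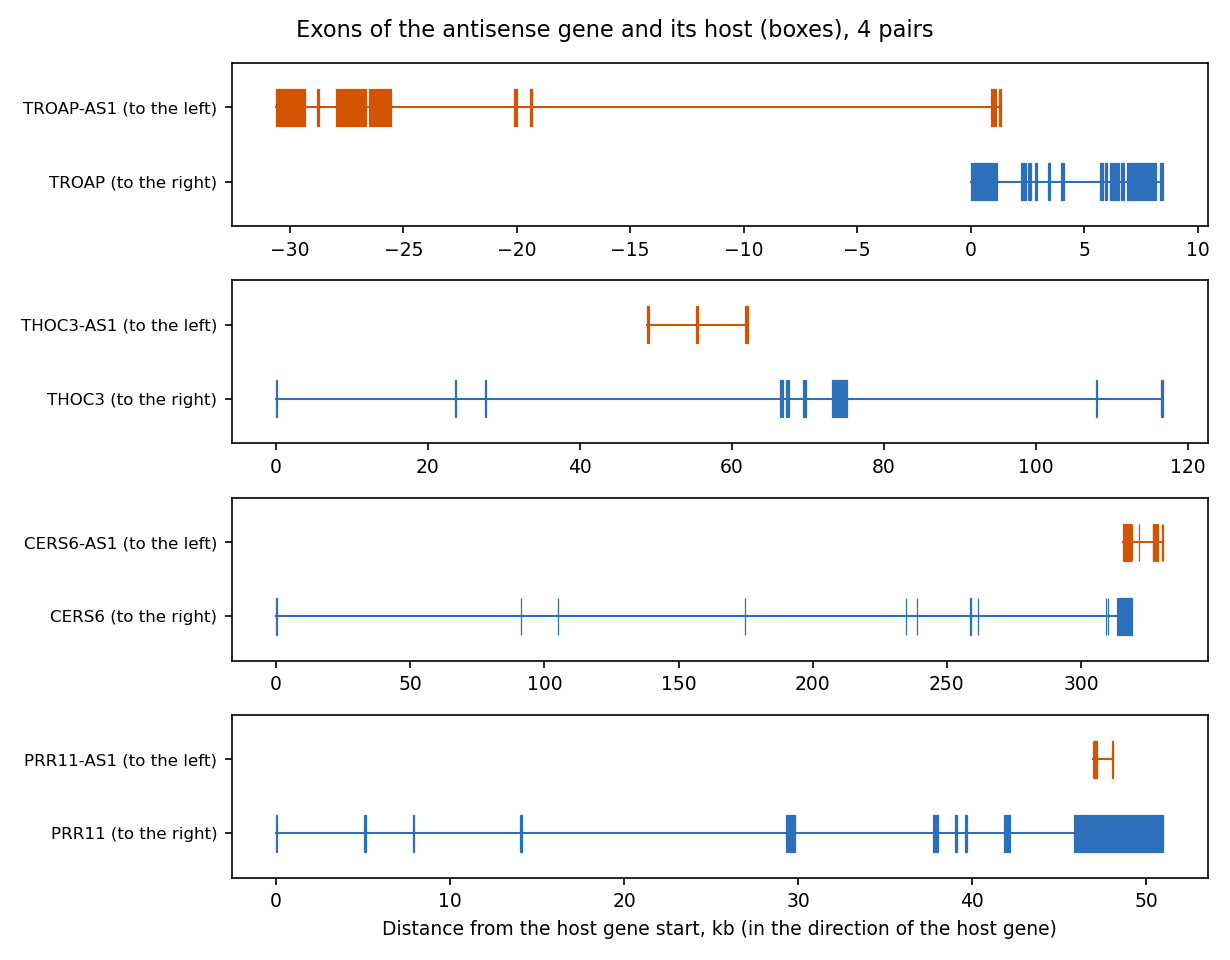
Exons (boxes) of the antisense gene (orange, read to the left) and the host (blue, read to the right) for 4 pairs, by distance from the host start in kb. TROAP-AS1 meets its host at the start (4.63% of its exonic bases shared), THOC3-AS1 lies in an intron (0%), CERS6-AS1 crosses the host's end (69.7%), and PRR11-AS1 lies inside the last host exon (100%).

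Other antisense genes with large increases had hosts that rose or were not called. LIF-AS2 was at 0 to 0.175 CPM in vehicle and at 5.84, 6.47 and 8.34 CPM after nutlin, with an LFC of 6.37 ± 0.20. LIF, a cytokine of the interleukin-6 family that p53 is known to induce, went from a median of 0.951 to 46.1 CPM, an LFC of 5.44 ± 0.09. The change of the ratio was -1.29 ± 0.12 with 0.5 CPM added, -0.02 with 0.1 CPM added and 1.003 from TPM, so that its sign depends on the scale. LIF-AS2 could not be tested on transcripts free of LIF exons. The part of LIF reads in its count was not tested.

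GAS6-AS1 went from 1.21, 2.37 and 3.10 CPM to 61.9, 68.0 and 80.9 CPM, an LFC of 5.0 ± 0.11. GAS6, a ligand of the TAM receptor kinases, rose by 1.49 ± 0.06 from a median of 17.7 to 48.6 CPM. The conditions were apart for both genes, and the ratio rose by 3.31 ± 0.11. Of the exonic bases of GAS6-AS1, 5.87% lie in GAS6 exons.

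NCKAP5-AS1 had 11 counts over the vehicle samples and 320 over the nutlin samples. Of the promoters printed above, its own is the one with the p53 decamer. That decamer was in 2.13% of the windows of higher antisense genes, 1.41% of lower and 1.72% of uncalled ones. The values of NCKAP5-AS1 are given next. Its values ran from 0 to 0.201 CPM in vehicle and from 1.35 to 2.57 CPM after nutlin, an LFC of 4.68 ± 0.26. NCKAP5, which surrounds it, was not called, with 5.72 to 13.5 CPM in vehicle and 3.28 to 8.89 CPM after nutlin (LFC -0.28 ± 0.17, adjusted p = 0.176). The 2 genes share no exonic base, and their starts lie 652906 bases apart.

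Among antisense genes that fell with no overlap between conditions, CERS6-AS1 had the most negative LFC, -3.68 ± 0.37. With an offset for effective length it was -2.25, less negative than that of PRR11-AS1 (-2.61) or TMC3-AS1 (-2.46). It ranged from 8.19 to 37.2 CPM in vehicle and from 0.263 to 5.95 CPM after nutlin, while CERS6, a ceramide synthase, was not called (LFC 0.07 ± 0.06). Of its exonic bases, 69.7% lie in CERS6 exons. The transcripts without such bases held 0.241% of its counts and had an LFC of 0.69 that was not called (adjusted p = 0.503).

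PRR11-AS1 and PRR11, a proline-rich gene of cycling cells, fell alike, by 2.58 ± 0.07 and 2.45 ± 0.07. All 321 exonic bases of PRR11-AS1 lie in PRR11 exons. TMC3-AS1 fell by 2.44 ± 0.22 as TMC3 rose by 0.78 ± 0.14. Its transcripts free of host exons, however, held 4.54% of its counts and were not called (LFC -1.11, adjusted p = 0.199). TMC3-AS1, at a mean of 1.0 CPM, met the minimum only through the vehicle samples. A difference was thus part of its selection. SLC16A4-AS1, with no shared exonic base, fell by 1.95 ± 0.09, from 11.6 to 17.6 CPM in vehicle to 2.78 to 4.33 CPM. Its host SLC16A4, a monocarboxylate transporter family member, had an LFC of -0.36 ± 0.15 that was just past the threshold (adjusted p = 0.0364) and was lost under 6 of the alternatives.

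The hosts SCN1A, C4B, MELTF and GPC1 had LFCs larger in size than those of their antisense genes. For C4B and GPC1 the change of the ratio from TPM was not called. SCN1A, a voltage-gated sodium channel, fell by 3.70 ± 0.19, from 19.95 to 42.0 CPM in vehicle to 0.394 to 3.81 CPM. SCN1A-AS1 had an LFC of -0.45 ± 0.15, with overlapping conditions. Of the exonic bases of SCN1A-AS1, 16.7% lie in SCN1A exons and 21.1% in exons of SCN9A, a sodium channel gene that rose by 1.07, and without the transcripts over SCN1A exons its LFC was 0.87 and not called (adjusted p = 0.0727).

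MELTF, a melanotransferrin, went from 27.8, 31.0 and 39.1 CPM to 147, 161 and 211 CPM, an LFC of 2.38 ± 0.06. MELTF-AS1 rose by 0.53 ± 0.07, from a median of 7.24 to 10.2 CPM, and the ratio fell by 1.87 ± 0.07. GPC1, a heparan sulfate proteoglycan, and GPC1-AS1 rose by 3.90 ± 0.05 and 3.46 ± 0.21. The change of the ratio in that pair was -1.78 ± 0.13 with 0.5 CPM added, -0.78 with 0.1 CPM added, and -0.58 and not called from TPM. C4B, a complement component, and C4B-AS1 rose by 4.61 ± 0.10 and 3.17 ± 0.15. C4B has a near-identical copy in C4A, so that its estimated counts are uncertain. Its LFC was 3.54 with an offset for effective length, and the change of the ratio was -2.02 with 0.5 CPM added but -0.56 and not called from TPM. MELTF-AS1 and C4B-AS1 could not be tested on transcripts free of host exons.

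**Figure D4:**
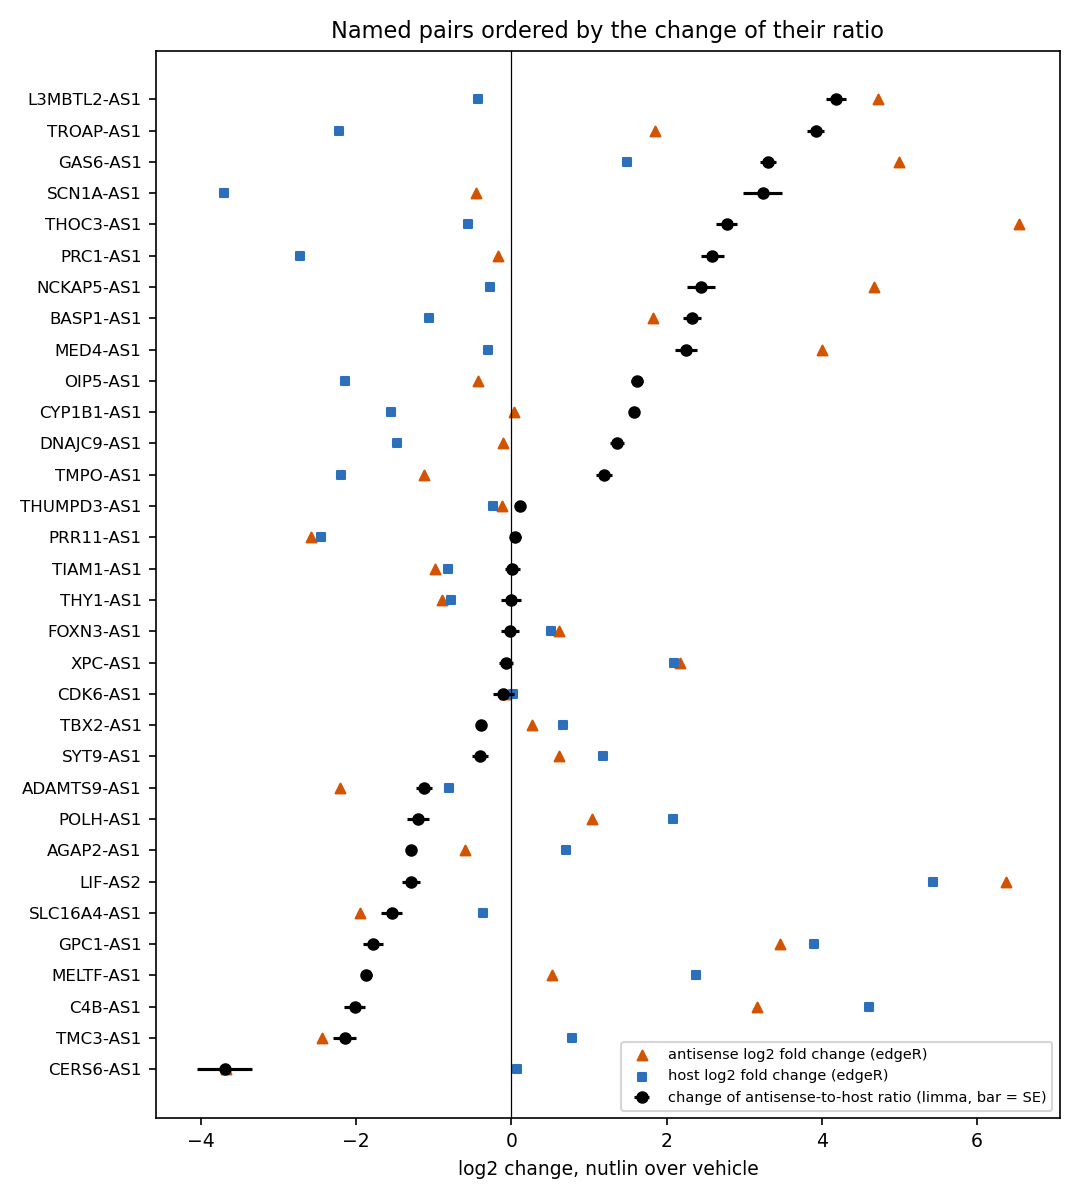
Change of the antisense-to-host ratio (black, limma, bars are SE) for the 32 named pairs, with the edgeR log2 fold change of the antisense gene (orange triangles) and of the host (blue squares). The ratio changes run from -3.69 for CERS6-AS1 to 4.18 for L3MBTL2-AS1.

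Per length, antisense genes were less abundant than their hosts in most pairs. The median TPM over the pairs was 3.32 for antisense genes and 19.0 for hosts, and the antisense TPM was at 19.4% of the host's in the median pair. In 85 pairs the antisense gene was the more abundant of the 2. SYT9-AS1 was the most abundant antisense member, at 335 ± 22.2 TPM (SD, n = 10) in vehicle and 454 ± 55.1 TPM after nutlin. Its host SYT9, a synaptotagmin, was at 0.816 ± 0.249 and 1.83 ± 0.272 TPM. Both rose, SYT9-AS1 by an LFC of 0.62 ± 0.05 and SYT9 by 1.18 ± 0.13.

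TBX2-AS1 stood at 123 ± 8.92 TPM in vehicle and 141 ± 10.5 TPM after nutlin, above TBX2, a T-box transcription factor, at 66.4 ± 8.85 and 111 ± 14.5 TPM. Both were higher after nutlin, with LFCs of 0.27 ± 0.05 and 0.66 ± 0.06. AGAP2-AS1 fell from 147 ± 6.93 to 95.8 ± 4.59 TPM as AGAP2 rose by 0.70 ± 0.06. Of the exonic bases of AGAP2-AS1, 91.9% lie in exons of OS9, which is on the same strand and had an LFC of -0.21. The part of OS9 reads in the count of AGAP2-AS1 was not tested. THUMPD3-AS1 changed little, at 87.4 ± 9.97 TPM in vehicle and 74.9 ± 5.69 TPM after nutlin, and its call (LFC -0.12 ± 0.04, adjusted p = 0.0107) was lost under 5 alternatives, DESeq2 (LFC -0.08) among them.

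Some hosts moved with no call for the antisense gene. CYP1B1, a cytochrome P450 that oxidises estrogens and polycyclic hydrocarbons, fell by 1.55 ± 0.05, from 389 to 518 CPM in vehicle to 138 to 159 CPM. CYP1B1-AS1 ranged from 22.7 to 27.4 CPM in vehicle and from 23.4 to 30.8 CPM after nutlin, with an LFC of 0.04 ± 0.05, which was 0.12 and called with the filterByExpr filter. DNAJC9, a histone chaperone, fell by 1.48 ± 0.04, from a median of 102 to 36.3 CPM, and DNAJC9-AS1 had medians of 4.41 and 4.01 CPM (LFC -0.11 ± 0.10). The ratio rose by 1.58 ± 0.06 and 1.36 ± 0.09 in these pairs. Of the exonic bases of DNAJC9-AS1, 27.1% lie in exons of CFAP70, which is on the opposite strand and rose by an LFC of 1.37. The part of CFAP70 reads in the count of DNAJC9-AS1 was not tested.

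Of the pairs whose members moved together by an LFC of at least 0.5 each, TIAM1-AS1, FOXN3-AS1 and THY1-AS1 had the smallest change of the ratio. In RefSeq 145 bases lie between the starts of TIAM1-AS1 and TIAM1. TIAM1-AS1 had 2.44, 3.09 and 4.05 CPM in vehicle and 1.16, 1.57 and 1.91 CPM after nutlin. TIAM1, an exchange factor for RAC1, had 89.5, 94.6 and 103 CPM and then 47.8, 54.2 and 62.3 CPM. The LFCs were -0.98 ± 0.12 and -0.81 ± 0.04, the conditions did not overlap, no exonic base is shared, and the ratio changed by 0.01 ± 0.10 (limma, adjusted p = 0.913). FOXN3-AS1 rose by 0.61 ± 0.15 and FOXN3, a forkhead repressor, by 0.51 ± 0.04, also without shared exonic bases. THY1-AS1 fell by 0.90 ± 0.15 and THY1, a surface glycoprotein of neurons, by 0.78 ± 0.04, and there all 632 exonic bases of THY1-AS1 lie in THY1 exons.

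Hosts were also grouped by function, and the counts stand beside the backgrounds given above. At 1 CPM or more, 50.4% of mRNAs were lower and 31.5% higher, and 54.2% of lncRNAs were higher and 16.7% lower. Ratios were higher in 47.6% and lower in 19.6% of all host-named pairs. Among the 222 abundant pairs that are not members, these shares were 57.2% and 14.4%. Of 24 pairs with hosts in RNA and protein handling, the host fell in 16 (66.7%) and rose in 6 (25%), the antisense gene rose in 15 (62.5%) and fell in 2 (8.33%), and the ratio rose in 20 (83.3%) and fell in 1 (4.17%). The median LFC in that list was 0.62 for the antisense genes and -0.34 for the hosts. PCBP1-AS1 rose by 1.08 ± 0.04 as PCBP1, a poly(C)-binding protein, fell by 0.36 ± 0.03. DDX11, a DNA helicase, fell by 1.52 ± 0.04 and DDX11-AS1 by 0.46 ± 0.13.

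Of 13 pairs with transcription factor hosts, 8 hosts fell (61.5%) and 4 rose (30.8%), 6 antisense genes were higher (46.2%) and 3 lower (23.1%), and the ratio rose in 9 (69.2%) and fell in 2 (15.4%). GABPB1, a subunit of the GABP factor that is also in the RNA and protein handling list, fell by 0.36 ± 0.06 as GABPB1-AS1 rose by 1.36 ± 0.05. GATA2-AS1 rose by 0.39 ± 0.04 as GATA2 fell by 0.42 ± 0.03.

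Of 15 pairs with neuronal hosts, 6 hosts fell (40%) and 4 rose (26.7%), and 6 antisense genes rose (40%) and 3 fell (20%). DBH, which makes noradrenaline, was not called (LFC -0.03 ± 0.04), while DBH-AS1 rose by 0.57 ± 0.11. NRSN2-AS1 rose by 1.24 ± 0.09 as NRSN2, a vesicle membrane protein of neurons, fell by 0.36 ± 0.05. The ratio rose in 8 of the 15 pairs (53.3%) and fell in 1 (6.67%).

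A further group, formed from the gene names after the calls were known, holds the 30 hosts named ZNF, ZSCAN, ZBTB, ZBED, ZFHX, ZFPM or ZEB, mostly zinc finger transcription factors. In it 15 hosts rose (50%) and 5 fell (16.7%), 18 antisense genes rose (60%) and 7 fell (23.3%), and the ratio rose in 11 and fell in 11 (36.7% each). ZNF561-AS1 and ZNF561 rose by 1.56 and 1.14, and ZNF337-AS1 and ZNF337 by 1.20 and 1.66.

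The orientation of the pairs was read from the annotation. Of the 437 pairs, 194 overlapped head to head, 92 tail to tail, in 100 the antisense gene lay within the host, in 29 the host lay within the antisense gene, 20 were divergent without overlap, and 2, FAM131B-AS2 and HILPDA-AS1, lay on the same strand as their host in GENCODE. The median change of the ratio was 0.45 in head-to-head pairs, 0.32 within hosts, 0.31 in divergent pairs without overlap, 0.17 tail to tail and 0.11 with the host inside. Among head-to-head pairs 54.6% of hosts fell and 59.8% of ratios rose, against 41.3% and 45.7% tail to tail. The differences between orientations were not tested.

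Exonic overlap with the host was present in 331 pairs, and the antisense exons overlapped another protein-coding gene in 91. The libraries were stranded, but the strand setting of the quantification is not given in the sources used here, so that reads over shared exonic bases may not be told apart. Among pairs with both members called, the same direction was found in 60.6% of those with no overlap, 48.8% of those with up to 10%, 64.4% of those above 10% and up to 50%, and 77.8% of those above 50%. These shares are of 66, 84, 87 and 18 pairs with both called, in that order. The Pearson correlation of the 2 LFCs was 0.37, 0.31, 0.67 and 0.58 over all 106, 150, 149 and 32 pairs of these classes. In the 87 pairs without exonic overlap with any protein-coding gene, 32 moved in the same direction and 22 in opposite directions.

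For 147 pairs the antisense gene had overlapping transcripts as well as transcripts free of host exons, and could be tested on the latter alone. Of the 109 called with all transcripts, 65 were called in the same direction, 43 were no longer called and 1 was called in the other direction. OIP5-AS1 kept 97.9% of its counts and had an LFC of -0.38. ADAMTS9-AS1 kept 74.0% and had an LFC of -2.17.

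**Figure D5:**
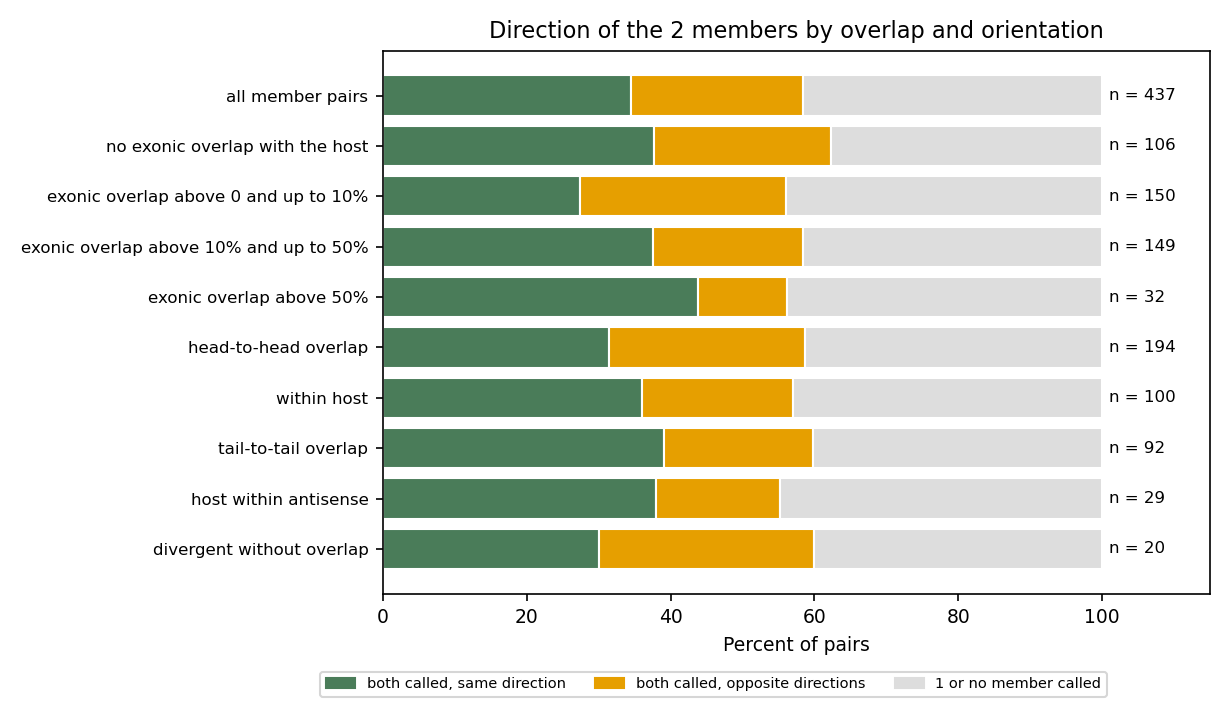
Percent of pairs with both members called in the same direction (green), in opposite directions (orange) or with 1 or no member called (grey), for all 437 pairs, by share of antisense exonic bases in host exons and by orientation. Among pairs with both called, the same direction was found in 48.8% of 84 (overlap up to 10%) to 77.8% of 18 (above 50%).

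Hosts with a pair of antisense members gave a comparison against the same host. ADAMTS9, a secreted metalloprotease, fell by 0.81 ± 0.05. Its antisense gene ADAMTS9-AS1 fell by 2.21 ± 0.12 while ADAMTS9-AS2, which crosses the host's start and shares no exonic base with it, rose by 1.20 ± 0.11. RBMS3, an RNA-binding protein, fell by 0.21 ± 0.05, RBMS3-AS2 rose by 1.56 ± 0.06 and RBMS3-AS3 fell by 0.76 ± 0.12. In the other 4 hosts (ADAMTSL4, CACNA1C, GTF3C2 and PTOV1) both antisense genes had the same call.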

How the data were processed

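RNA-seq of 10 nutlin and 10 vehicle samples was used, with 75-base reads from both ends of poly(A) fragments, as stated in the study's methods. The authors ran kallisto 0.42.4 (named in the submitters' processing notes) on transcripts of GRCh38 from Ensembl release 85 and deposited, for 198968 transcripts per sample, estimated counts with no normalization, effective lengths in bases, and TPM scaled for length and depth. Estimated counts and TPM were summed per gene after 191106 transcripts were matched to GENCODE release 44 (Ensembl release 110). Rounded counts were tested with edgeR 4.0.16 (quasi-likelihood, TMM, genes with a total of 1 or more in each condition) in R 4.3.3, and antisense-to-host ratios with limma 3.58.1 on log2(CPM + 0.5), both with Benjamini-Hochberg adjustment at 5% FDR, over all genes and over all 2006 host-named pairs. CPM values are scaled by TMM and levels of different genes were compared by TPM. The SE of an LFC was derived from the F statistic. Both scripts were tested on simulated data.

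Members and lists were chosen with earlier results of these data known. The 32 named pairs came from a rule that took up to the stated number of each kind, fewer where a pair is not reported. It took the 5 highest and 5 lowest antisense LFCs without overlap of conditions and the 5 largest ratio changes each way. It also took the 5 most abundant antisense genes, 6 opposite pairs, 3 pairs that moved together (LFC of 0.5 or more) and 3 hosts called alone. Last came the hosts on the p53 target list and 5 hosts on the cell cycle list. Other genes were chosen as examples after their values were seen. The alternatives are DESeq2 1.42.0, DESeq2 size factors, limma voom, other filters, effective length, TPM, pseudocounts, a permutation test with 100000 resamples, 1% FDR and a replicate block. Python 3.11.15 with pandas 2.3.3 and scipy 1.17.1 was used. The study's methods call the samples of each condition biological replicates, and p-values measure the spread between them. The 3 genes left out by the selection rule were not analysed here, and results for some genes are not reported.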

Additional observations from a re-analysis of the deposited data

Results flagged for a closer look

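Among 128 sets of 10 samples, 1 for each member of a named pair and condition, 7 had a highest or lowest sample whose gap to its nearest neighbour exceeded Dixon's 95% critical value, where chance alone gives about 1 in 20. Vehicle replicate 10 was the highest for L3MBTL2 at 66.8 CPM (next 56.9) and NCKAP5 at 13.5 CPM (next 7.40). Without it, a choice made after seeing the data, the LFC of NCKAP5 was -0.12 and not called, against -0.28 with it, and 224 antisense genes were higher and 79 lower, and 105 pairs moved in opposite directions.

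The other samples that stood apart were nutlin replicate 10 for GAS6 at 54.4 CPM, vehicle replicate 4 for PRR11-AS1 at 20.2 CPM, nutlin replicate 2 for MELTF-AS1 at 13.1 CPM, nutlin replicate 4 for MELTF at 210.9 CPM, and nutlin replicate 11 for GPC1-AS1, the lowest of its condition, at 1.64 CPM.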

How the results depend on the processing

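Counts of calls stayed within 1.5 times under DESeq2, its size factors, limma voom, both changes of the filter, effective length, TPM, both pseudocounts, 1% FDR and the permutation test, with antisense genes higher in 194 (1% FDR) to 255 pairs (filterByExpr) against 222. Smaller sets of pairs gave smaller counts by construction. With transcripts free of host exons (253 pairs), 117 antisense genes were higher and 32 lower, 87 hosts higher and 118 lower, 71 pairs moved alike and 51 apart, and 124 ratios rose and 54 fell. With a mean of 5 CPM or more (127 pairs), the values were 72 and 28, 46 and 62, 47 and 38, and 72 and 27. For the 87 pairs without any exonic overlap, chosen after seeing the data, they were 46 and 18, 32 and 39, 32 and 22, and 38 and 24.

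Samples that share a replicate number did not deviate together (correlations from -0.08 to 0.10 over 8 numbers), and nothing says that they were paired. With the replicate block over 16 samples 210 antisense genes were higher and 75 lower, against 210 and 76 without it in the same samples.

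Of the single results, 1033 kept their side of the threshold, of which 18 were not called and changed sign. A further 16 were no longer called, 8 became called, and 3 values called in the main setting changed sign. The 3 were the LIF-AS2 ratio from TPM (1.003), and the LFCs of CERS6-AS1 (0.69) and SCN1A-AS1 (0.87) without overlapping transcripts. Neither LFC was called there (edgeR, adjusted p = 0.503 and 0.0727), and the cause of the sign changes was not tested. Rare genes limit the precision, since 3 named antisense genes had 17 counts or fewer but over 10 in vehicle, and THOC3-AS1 had 2.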
